A study of Mus musculus with 16 samples.

Results

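The genes described here are 9 factors of antigen handling in dendritic cells, taken by symbol from the 24421 genes of the count table. They are 4 genes linked to cross-presentation (Wdfy4, Sec22b, Erap1 and Lnpep) and 5 genes of the phagosomal NADPH oxidase (Cybb, Cyba, Ncf1, Ncf4 and Rac2). All 9 were found and all 9 passed the filter on low counts. RNA-seq was done on conventional type 1 dendritic cells (cDC1s) sorted from the spleen of C57BL6 mice at steady state, with no other treatment named. The 16 libraries formed 4 groups of 4: immature Xbp1fl, mature Xbp1fl, immature Xbp1flIre1fl and mature Xbp1flIre1fl. In Xbp1fl mice the gene Xbp1 carries loxP sites, and in Xbp1flIre1fl mice Ern1, which encodes IRE1, carries them as well. The series' design text states that neither gene was knocked out in these animals and treats both genotypes as functionally wild type, so every library, immature and mature, shares a floxed Xbp1. No age is given in the labels. Nor do they tie the 4 libraries of a group to different animals, so the spread that p-values rest on may be technical.

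Cross-presentation is the display of peptides from engulfed material on MHC class I, and cDC1s are known for it. The phagosomal oxidase NOX2 is built from a membrane pair, gp91phox (Cybb) and p22phox (Cyba), and from cytosolic subunits, among them p47phox (Ncf1) and p40phox (Ncf4), which join the pair together with a Rac GTPase when the enzyme is switched on. It passes electrons from NADPH to oxygen, and in dendritic cells it is known to slow the acidification of phagosomes and with it the breakdown of antigen. WDFY4 is a BEACH domain protein required for cross-presentation of cell-associated antigen by cDC1s, SEC22B is a SNARE of traffic between the endoplasmic reticulum and the Golgi with a debated role in cross-presentation, and ERAP1 and IRAP (Lnpep) trim peptides in the endoplasmic reticulum and in endosomes.

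Each library held between 13948232 and 17000763 counts. Levels are given as CPM, counts scaled to a common library size with TMM factors. The maturity labels matched Ccr7, the chemokine receptor of migrating dendritic cells, at 177 ± 72.3 CPM in immature and 9407 ± 2861 CPM in mature libraries (SD, n = 8 each). Among the mature libraries, Xbp1flIre1fl replicates 2 and 4 had the lowest Ccr7, at 6574 and 4988 CPM, against 8001 to 13425 CPM in the other 6. The sorted cell type was checked against 8 cDC1 markers, all present, whose summed level was 6853 to 8107 CPM in immature and 4005 to 6558 CPM in mature libraries. In the comparison of stages, the mean over both genotypes, 5 of the 8 markers were lower in mature cells, where 34.2% of all genes tested were. The 5 were Tlr3 (log2 fold change -1.03), Naaa (-0.70), Xcr1 (-0.45), Irf8 (-0.40) and Clec9a (-0.32). Batf3 was called higher (0.15, adjusted p = 0.048; -0.07 with library sizes only), and Cadm1 and Itgae did not pass. Both floxed genes were detected in the 2 stages, Xbp1 at 114 and 83.4 CPM (immature and mature, adjusted p = 6.3e-06) and Ern1 at 30.3 and 24.1 CPM (adjusted p = 9.5e-04).

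Between the stages 8 of the 9 genes passed the test (edgeR's quasi-likelihood test, Benjamini-Hochberg adjusted p under 0.05), 5 higher and 3 lower in mature cells. Of all 11978 genes tested, 67.6% passed, 33.4% higher and 34.2% lower. Cybb, Cyba, Ncf1, Lnpep and Erap1 rose, Ncf4, Wdfy4 and Rac2 fell, and Sec22b did not pass. The median log2 fold change of the 9 was 0.13, beside -0.01 over all genes tested. The libraries of the stages did not overlap for 6 of the 9 genes, 4 higher and 2 lower in mature cells. Of the genes tested, 33.0% did not overlap, 18.0% higher and 15.0% lower. In bulk samples, fewer cells of a type and less RNA per cell cannot be told apart.

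**Figure D1:**
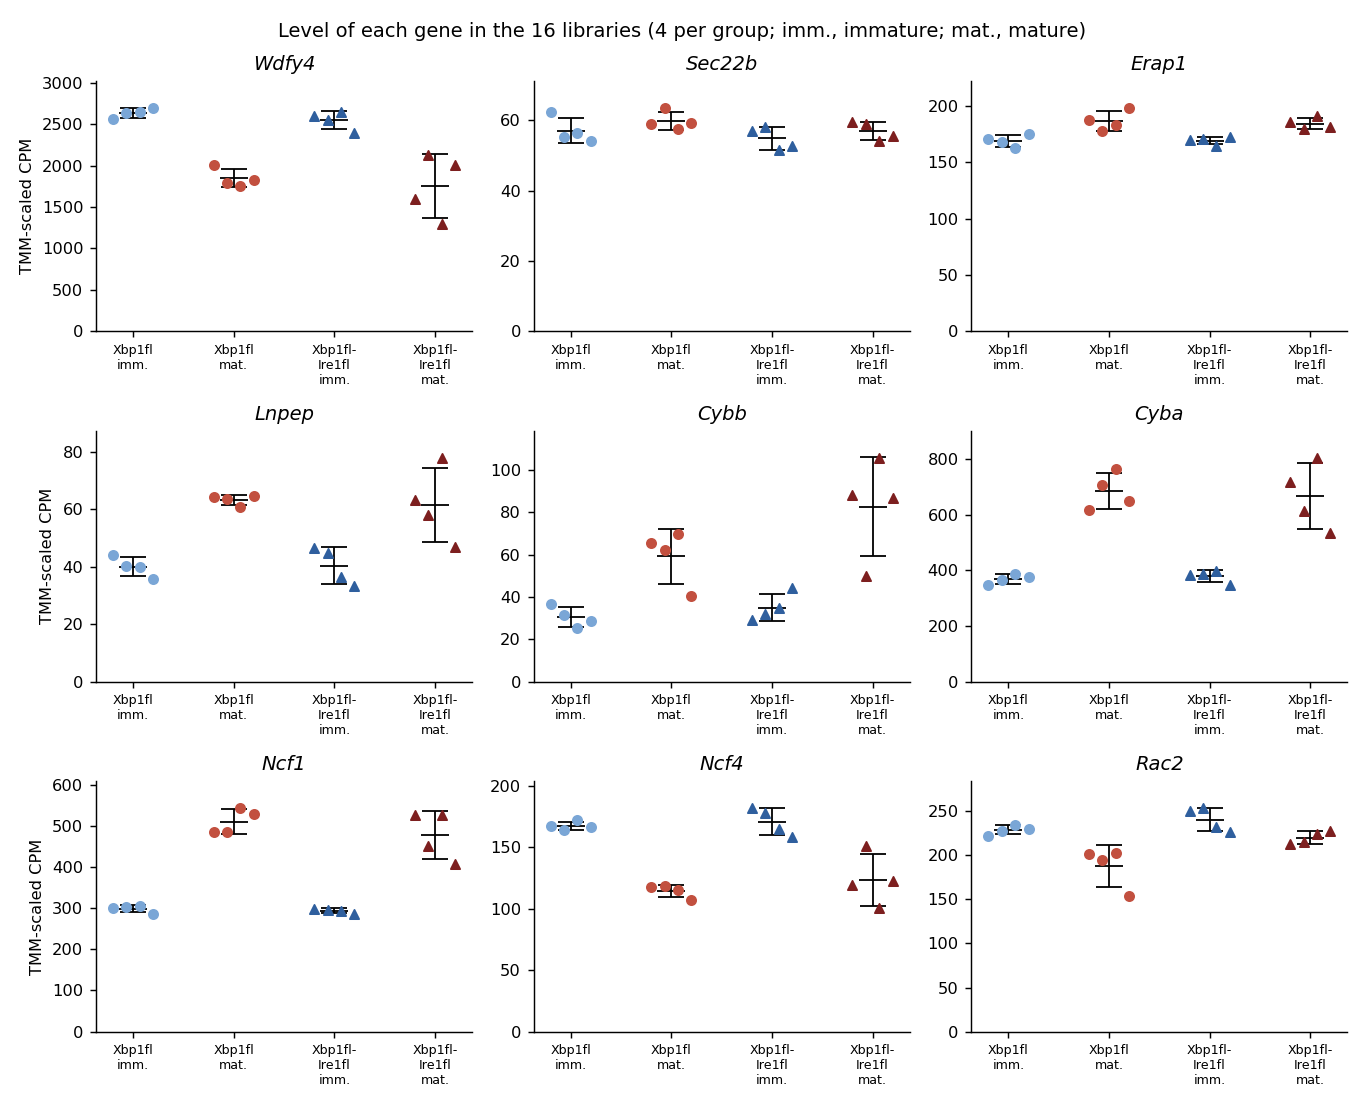
TMM-scaled CPM of the 9 genes in each of the 16 libraries (points; circles Xbp1fl, triangles Xbp1flIre1fl), with the group mean and SD (bars, n = 4) and a vertical axis from 0. All mature libraries lie above all immature ones for Erap1, Lnpep, Cyba and Ncf1 and below them for Wdfy4 and Ncf4, while Sec22b stays between 51.4 and 63.5 CPM.

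Both genes of the oxidase's membrane pair rose. Cyba, at chr8:122424776-122432930 on the minus strand (mm10, GENCODE vM21), encodes p22phox, the partner that stabilises gp91phox and docks p47phox. In the Xbp1fl libraries Cyba was at 346, 366, 389 and 378 CPM in the immature and 617, 709, 766 and 651 CPM in the mature stage. The Xbp1flIre1fl libraries had 385, 386, 399 and 349 CPM of Cyba before and 720, 613, 805 and 535 CPM after maturation. Every mature library was above every immature one, and the lowest mature value was that of Xbp1flIre1fl replicate 4. Cyba rose 1.81-fold (log2 fold change 0.85, SE 0.07, adjusted p = 1.3e-08).

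Cybb, at chrX:9435252-9487771 on the minus strand, encodes gp91phox, the subunit that carries the electrons across the membrane. Immature Xbp1fl libraries had 36.8, 31.7, 25.5 and 28.7 CPM of Cybb, and the mature ones 65.4, 62.2, 69.6 and 40.3 CPM. Among Xbp1flIre1fl libraries Cybb was at 29.1, 32.0, 34.7 and 44.2 CPM in the immature and 88.4, 50.1, 106 and 87.0 CPM in the mature stage. The stages overlapped through a single mature library, Xbp1fl replicate 4, and the other 7 were above all immature ones. Cybb rose 2.14-fold (log2 fold change 1.10, SE 0.15, adjusted p = 1.1e-05), with the widest spread of the 9 genes relative to the mean, 71.1 ± 21.6 CPM in mature cells (SD, n = 8).

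Markers of some other cell types were higher in mature libraries too, B cells and macrophages among them, while those of neutrophils were not. Of all genes tested, 33.4% were called higher and 34.2% lower. The summed level of 10 B cell markers was 125 to 182 CPM in immature and 317 to 1042 CPM in mature libraries, and 10 of the 10 were called higher (Cd79a 25.5 to 155 CPM; Pax5 was at 0 in some library). The sum of 10 macrophage markers went from 95.4 to 456 CPM in the immature libraries to 373 to 884 CPM in the mature ones, with 6 of the 10 called higher (C1qa 11.5 to 25.1 CPM). In the mature Xbp1fl libraries the B cell sum was 538, 389, 662 and 317 CPM. In the mature Xbp1flIre1fl libraries it was 743, 344, 1042 and 680 CPM, in each genotype the same order as Cybb. The immature libraries had 182, 133, 145 and 125 CPM (Xbp1fl) and 129, 128, 168 and 151 CPM (Xbp1flIre1fl), not in the order of Cybb. The macrophage sum had the order of Cybb in mature Xbp1flIre1fl libraries (782, 373, 884 and 735 CPM) but not in mature Xbp1fl ones, where the replicate with the least Cybb had the most (590 CPM). Neutrophil markers, 8 of 9 matched, summed to 6.05 to 50.7 CPM and 2.13 to 45.9 CPM, with 0 called higher and 1 lower, and S100a8, S100a9, Elane, Camp, Ltf and Retnlg were at 0 in some library. Of 6 monocyte markers, 1 was called higher (summed 54.4 to 163 CPM and 88.9 to 240 CPM). T cell markers (5 of 6 called higher) summed to 25.3 to 39.5 CPM and 50.6 to 87.9 CPM, and markers of the other conventional subset, cDC2 (3 of 5 tested called higher), to 45.2 to 83.2 CPM and 131 to 246 CPM. Of 4 NK cell and 4 plasmacytoid dendritic cell (pDC) markers, 0 were called higher and 1, the pDC marker Ccr9, lower (log2 fold change -0.73). The pDC sum was 46.2 to 67.6 CPM and 32.4 to 47.5 CPM. The part of these cells in the changes of the oxidase genes was not tested.

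Of the cytosolic subunits, Ncf1 rose and Ncf4 fell. Ncf1, at chr5:134220053-134229625 on the minus strand, encodes p47phox, the organiser that carries the cytosolic complex to the membrane. Its level was 300.3, 302, 306 and 286 CPM in immature and 484, 485, 543 and 528 CPM in mature Xbp1fl libraries. In Xbp1flIre1fl libraries Ncf1 was at 299, 296, 294 and 285 CPM in the immature and 526, 449.9, 527 and 407 CPM in the mature stage. The 8 immature values lay close together, at 296 ± 7.33 CPM (SD), and every mature library was above them. Ncf1 rose 1.67-fold (log2 fold change 0.74, SE 0.05, adjusted p = 1.9e-09). The exons of Ncf1 share 408 bases with Gtf2ird2 on the other strand, which had 1867 counts over the 16 libraries. Of the 50-base stretches of Ncf1, 7.45% are shared with Gtf2ird2 or Zhx3. Strandedness is not given in the sources used here.

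Ncf4, at chr15:78244801-78262580 on the plus strand, encodes p40phox, which binds phosphatidylinositol 3-phosphate on phagosomes. Immature Xbp1fl libraries held 167, 164, 172 and 166 CPM of Ncf4, and mature ones 118, 118, 115 and 107 CPM. With Xbp1flIre1fl the values were 182, 178, 165 and 158 CPM in the immature and 119, 151, 100.4 and 123 CPM in the mature stage. All mature libraries were below all immature ones, with Xbp1flIre1fl mature replicate 2 the nearest to them. Ncf4 fell 1.42-fold (log2 fold change -0.51, SE 0.06, adjusted p = 1.7e-06).

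The proportion of Ncf1 to Ncf4 counts within a library, which no scaling of libraries can alter, was 1.64 to 1.84 in immature and 2.97 to 5.24 in mature libraries. Its geometric mean went from 1.75 to 4.16, a log2 difference of 1.25 (exact two-sided permutation test over 8 against 8 libraries, p = 1.6e-04, the smallest these permutations can give; adjusted over 4 ratios, 6.2e-04). Cybb to Cyba was 0.0866 and 0.102 as geometric means, a log2 difference of 0.23 that did not pass (exact permutation p = 0.24, adjusted 0.24), and the libraries of the stages overlapped. It was 0.13 without Xbp1flIre1fl mature replicate 4 (adjusted p = 0.45).

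**Figure D2:**
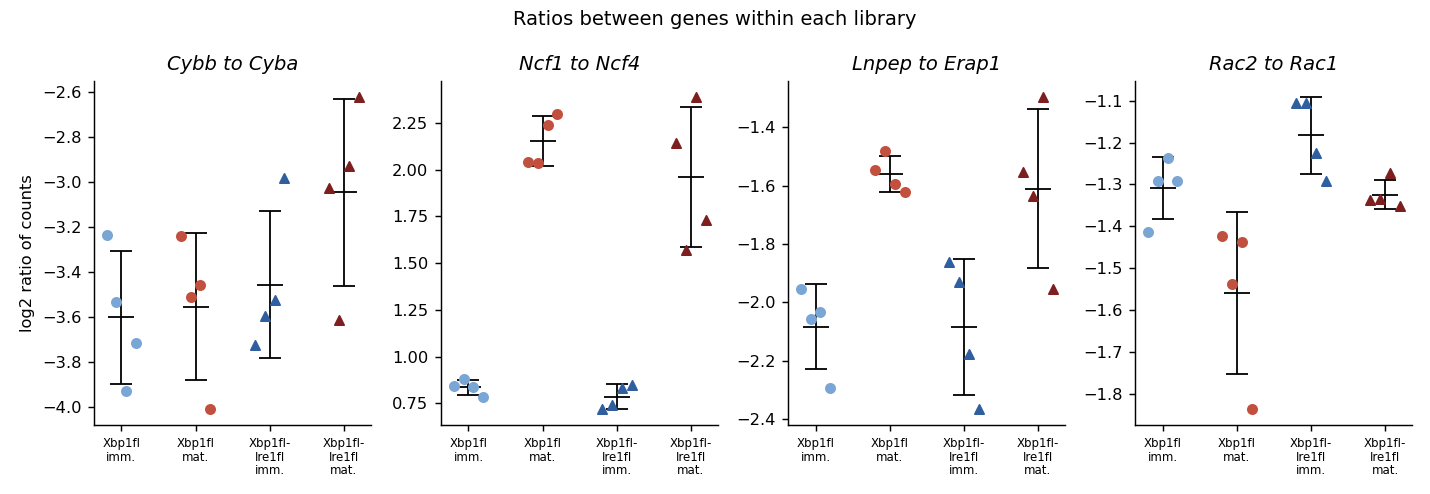
Ratio of the counts of a pair of genes in each library, on a log2 axis, by group (points, with the mean and SD, n = 4). For Ncf1 to Ncf4 every mature library lies above every immature one, while for Cybb to Cyba, Lnpep to Erap1 and Rac2 to Rac1 the stages overlap.

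Rac2, at chr15:78559167-78572783 on the minus strand, encodes the Rac GTPase of blood cells that serves the oxidase. Its level was 222, 228, 234 and 230.2 CPM in immature and 201, 194, 202 and 153 CPM in mature Xbp1fl libraries. Immature Xbp1flIre1fl libraries had 250.2, 253, 232 and 226 CPM of Rac2, and mature ones 213, 215, 224 and 227 CPM. Of the mature libraries 6 were below all immature ones, and Xbp1fl mature replicate 4 was far below the rest. Rac2 fell 1.15-fold (log2 fold change -0.21, SE 0.05, adjusted p = 0.0026), and without that library by 0.17 on the log2 scale (adjusted p = 0.0021). Rac1, its widely expressed relative, was at 555 ± 16.7 and 550.1 ± 15.0 CPM (SD, n = 8 each; log2 fold change -0.01, adjusted p = 0.76). Under upper quartile factors Rac1 passed as lower (-0.13, adjusted p = 0.0057), and likewise with library sizes only (-0.24, adjusted p = 1.5e-04). The counts of Rac2 for each of Rac1 went from 0.422 to 0.368, a log2 difference of -0.20 (exact permutation p = 0.0068, adjusted over 4 ratios 0.0091).

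The windows upstream of the rising oxidase genes are shown because these 3 subunits were all higher in mature cells. They are the 250 bases before each RefSeq start (GRCm38.p6, minus strand for all 3), 5′ to 3′ on the strand of the gene, for Cybb at chrX:9469325-9469574, Ncf1 at chr5:134229626-134229875 and Cyba at chr8:122432941-122433190. Capitals mark the matches to the motifs searched.
Cybb: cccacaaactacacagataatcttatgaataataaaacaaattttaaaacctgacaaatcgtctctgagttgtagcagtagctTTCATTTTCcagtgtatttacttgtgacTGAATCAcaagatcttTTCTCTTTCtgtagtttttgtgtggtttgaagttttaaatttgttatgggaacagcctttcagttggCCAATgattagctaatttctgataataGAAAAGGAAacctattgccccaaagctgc
Ncf1: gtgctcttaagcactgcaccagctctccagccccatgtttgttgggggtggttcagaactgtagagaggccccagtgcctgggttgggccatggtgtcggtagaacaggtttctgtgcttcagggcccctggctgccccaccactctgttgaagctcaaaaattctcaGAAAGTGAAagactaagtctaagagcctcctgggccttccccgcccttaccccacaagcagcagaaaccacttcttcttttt
Cyba: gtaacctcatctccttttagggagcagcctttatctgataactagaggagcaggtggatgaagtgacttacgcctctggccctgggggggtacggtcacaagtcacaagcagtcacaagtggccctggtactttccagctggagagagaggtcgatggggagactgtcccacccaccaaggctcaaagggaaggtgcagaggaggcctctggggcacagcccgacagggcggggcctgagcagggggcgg
The Cybb window lies inside the longer GENCODE span of the gene.

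The motifs were searched on both strands: PU.1 as GAGGAAGT, an ETS-IRF composite as GGAANNGAA, IRF as GAAANNGAA, AP-1 as TGANTCA, and CCAAT. The Cybb window held 3 IRF matches, at bases -167 to -159, -123 to -115 and -29 to -21 counted from the start, of which the first pair reads on the opposite strand. It also held a match to the AP-1 letters, reading TGAATCA, at -139 to -133 and a CCAAT box at -56 to -52. The AP-1 pattern searched allows any base at its centre. The Ncf1 window held 1 IRF match, at -82 to -74, and the Cyba window held none of the motifs. Of 32851 RefSeq windows of this length, 2.44% held the PU.1 letters, 6.99% the ETS-IRF letters, 7.13% the IRF letters, 6.75% the AP-1 letters and 33.8% CCAAT. For the 11698 windows of genes tested here the shares were 2.75%, 6.18%, 6.51%, 4.4% and 35.4%, in that order. No matches overlapped in the windows shown. RefSeq windows were found for 7 of the 9 genes, not for Ncf4 and Rac2, and among the other 4 an IRF match was found in Erap1 and CCAAT in Sec22b and Wdfy4.

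Of the cross-presentation factors, Wdfy4 fell and Lnpep rose. Wdfy4, at chr14:32959547-33185508 on the minus strand, was the member with the most counts. Its level was 2562, 2633, 2649 and 2696 CPM in immature and 2006, 1793, 1759 and 1830 CPM in mature Xbp1fl libraries. Xbp1flIre1fl libraries had 2599, 2552, 2644 and 2398 CPM of Wdfy4 in the immature and 1592, 2133, 1290 and 2010 CPM in the mature stage. All mature libraries were below all immature ones, and the spread was wider in mature cells, 1802 ± 268 against 2592 ± 91.6 CPM (SD, n = 8 each). Wdfy4 fell 1.44-fold (log2 fold change -0.52, SE 0.08, adjusted p = 1.5e-05).

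Lnpep, at chr17:17521410-17625050 on the minus strand, encodes IRAP, the aminopeptidase of endosomes. Immature Xbp1fl libraries had 44.1, 40.3, 39.8 and 35.8 CPM of Lnpep, and mature ones 64.2, 63.7, 60.7 and 64.5 CPM. The values in Xbp1flIre1fl libraries were 46.6, 44.8, 36.4 and 33.4 CPM in the immature and 63.1, 57.8, 77.8 and 46.8 CPM in the mature stage. The groups did not overlap, but the lowest mature library, Xbp1flIre1fl replicate 4, at 46.8 CPM lay next to the highest immature one, at 46.6 CPM. Lnpep rose 1.55-fold (log2 fold change 0.63, SE 0.09, adjusted p = 7.3e-06).

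Erap1, at chr13:74639568-74693201 on the plus strand, encodes the aminopeptidase that cuts peptides to length in the endoplasmic reticulum. It was at 163 to 176 CPM in immature libraries (median over 8, 170.1) and at 178 to 198 CPM in mature ones (median 185), with no overlap. Erap1 rose 1.10-fold (log2 fold change 0.13, SE 0.04, adjusted p = 0.0042), a direction that was lost under another scaling: 0.01 with upper quartile factors and -0.09 with library sizes only. Erap1 exons share 834 bases with Cast on the other strand, which had 15116 counts over the 16 libraries. Of the 50-base stretches of Erap1, 10.7% are shared with another gene, in each case Cast. The counts of Lnpep for each of Erap1, free of scaling, went from 0.236 to 0.333, a log2 difference of 0.50 (exact permutation p = 4.7e-04, adjusted over 4 ratios 9.3e-04), with overlap between the stages.

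Sec22b, at chr3:97901190-97923276 on the plus strand, was at 51.4 to 62.3 CPM in immature and 54.2 to 63.5 CPM in mature libraries. The means were 55.9 ± 3.40 and 58.4 ± 2.80 CPM (SD, n = 8 each), and 1 mature library was above all immature ones. Its log2 fold change of 0.06 (SE 0.05) did not pass (adjusted p = 0.25), and its sign turned with scaling: -0.06 with upper quartile factors and -0.16 with library sizes only, where it was called lower (adjusted p = 0.0086).

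**Figure D3:**
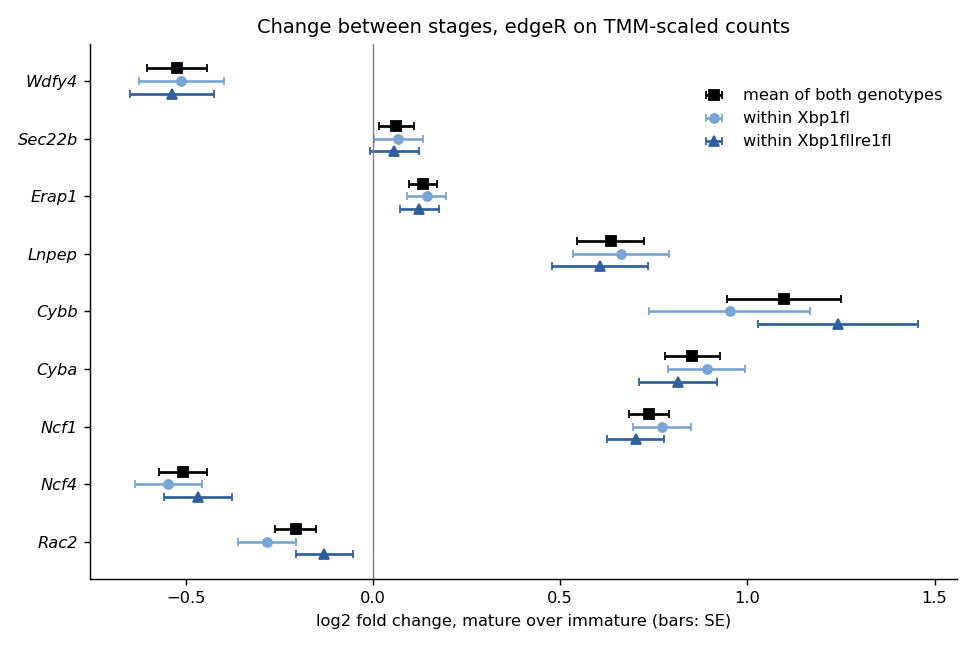
Log2 fold change of each gene, mature over immature, as the mean of both genotypes and within each genotype (points, with SE bars). Cybb has the largest change at 1.10 and the widest bars, Wdfy4, Ncf4 and Rac2 lie below 0, and Sec22b lies at 0.06.

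**Figure D4:**
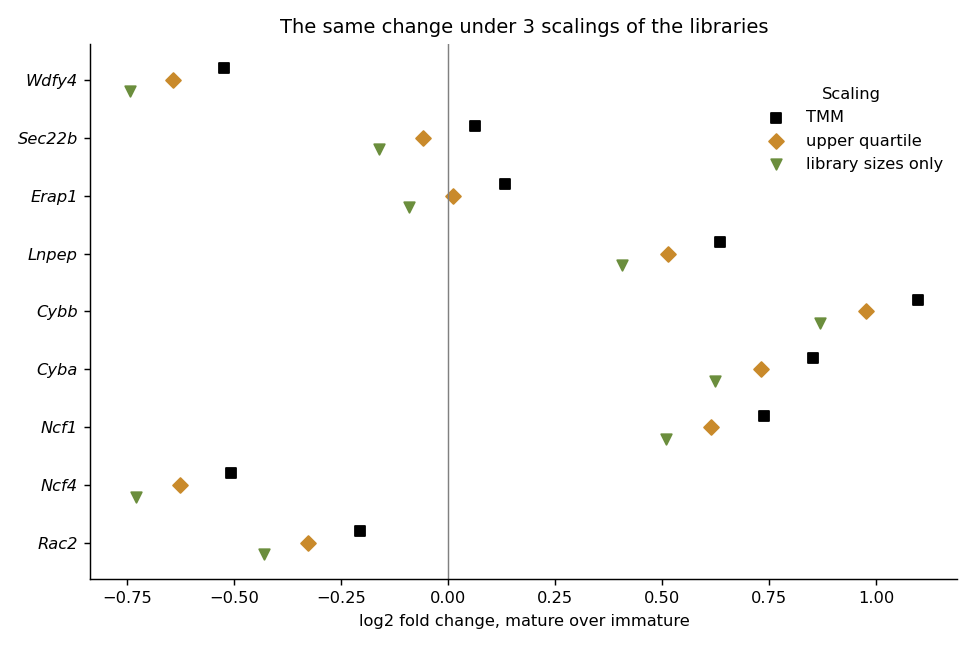
Log2 fold change of each gene, mature over immature, under TMM, upper quartile and library size scaling. The median of all genes tested is -0.01, -0.13 and -0.23 under the 3 scalings, and of the 9 genes only Erap1 and Sec22b change sign.

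The scalings differed in where they put the median of all genes, at -0.01 with TMM, -0.13 with upper quartile factors and -0.23 with library sizes only. Cyba, Cybb, Ncf1 and Lnpep remained above 0 and Wdfy4, Ncf4 and Rac2 below 0, past the threshold, under each of these.

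Per kilobase of merged exons (RPKM made from the scaled CPM), the genes covered a wide range of levels. In immature cells Cyba was the highest at 361 ± 18.4 RPKM, followed by Wdfy4 at 246 ± 8.68 (SD, n = 8). Ncf4 (83.6 ± 3.78), Ncf1 (80.8 ± 2.00) and Rac2 (75.6 ± 3.65) came next, and the spreads of Ncf4 and Ncf1 and those of Ncf1 and Rac2 overlapped. Erap1 was at 23.3 ± 0.56 and Sec22b at 14.1 ± 0.85 RPKM. Cybb, at 5.65 ± 1.00, was far below its partner Cyba, and Lnpep was the lowest at 2.84 ± 0.34 RPKM. In mature cells Cyba was at 651 ± 85.8, Wdfy4 at 171 ± 25.4, Ncf1 at 135 ± 12.7, Rac2 at 65.7 ± 7.53 and Ncf4 at 58.9 ± 7.40 RPKM. The order below them was Erap1 (25.5 ± 0.92), Sec22b (14.7 ± 0.70), Cybb (12.2 ± 3.72) and Lnpep (4.41 ± 0.60), and the spreads of Rac2 and Ncf4 and of Sec22b and Cybb overlapped.

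**Figure D5:**
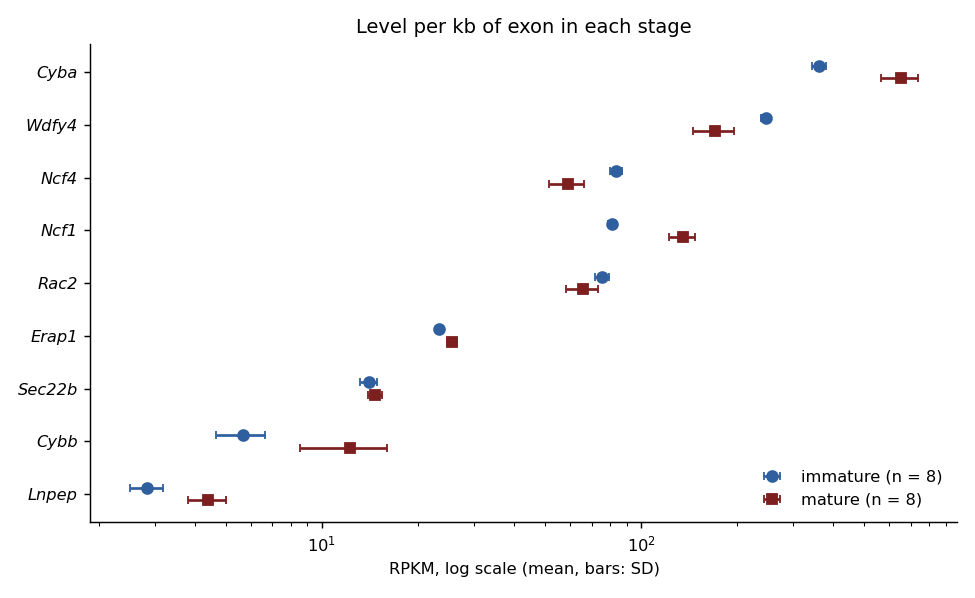
RPKM of each gene in immature and mature libraries on a log axis (mean and SD, n = 8 each). Cyba is at the top in both stages (361 and 651 RPKM) and Lnpep at the bottom (2.84 and 4.41 RPKM), and Ncf1 and Ncf4 start close together and part in mature cells.

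Within the Xbp1fl genotype 8 of the 9 genes passed the comparison of stages, where 56.8% of all genes did, and within Xbp1flIre1fl 6 of 9, where 53.5% did. The 2 genes that did not pass in Xbp1flIre1fl beside Sec22b were Erap1 (log2 fold change 0.12, adjusted p = 0.057; 0.14, adjusted p = 0.028 in Xbp1fl) and Rac2 (-0.13, adjusted p = 0.16; -0.28, adjusted p = 0.0043 in Xbp1fl). The difference between the genotypes in the change itself passed for 0 of the 9 genes, where 0% of all genes passed by edgeR (2.75% at an unadjusted p under 0.05), and the smallest unadjusted p of the 9 was 0.17, for Rac2 (difference 0.15, SE 0.11). Cybb changed by 0.95 (SE 0.21) in Xbp1fl and 1.24 (SE 0.21) in Xbp1flIre1fl.

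Between the genotypes, 0 of the 9 genes passed in immature cells (0.134% of all genes did) and 0 in mature cells (0.142%). At an unadjusted p under 0.05, 0 of the 9 passed in immature cells (4.78% of all genes did), and 2, Cybb and Rac2, in mature cells (6.29%). Mature Xbp1flIre1fl cells had 213 to 227 CPM of Rac2 and mature Xbp1fl cells 153 to 202 CPM, without overlap (log2 difference 0.23, SE 0.08, unadjusted p = 0.0087, adjusted p = 0.52). Of all genes, 2.56% did not overlap between the mature genotypes. Without Xbp1fl mature replicate 4 the difference in Rac2 was 0.14 (adjusted p = 0.76). For Cybb the log2 difference in mature cells was 0.48 (SE 0.21, unadjusted p = 0.037, adjusted p = 0.74), and the libraries overlapped. Without Xbp1flIre1fl mature replicates 2 and 4, the libraries of lowest Ccr7, 1 of the 9 genes passed in mature cells, where 1.23% of 12315 genes tested in that fit did. It was Wdfy4 (log2 difference -0.36, adjusted p = 0.035; -0.07, adjusted p = 0.97 with all libraries), and without Xbp1flIre1fl mature replicate 3 its difference was 0.05. Replicates 2 and 4 held the 2 highest Wdfy4 values of their group, so leaving them out by itself lowers the level of Wdfy4 in that genotype.

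Leaving out both of those replicates did not change the 8 calls between stages. As they had the lowest Ccr7 of the mature libraries, leaving them out can by itself widen the difference between the stages. The log2 fold changes were then 0.94 for Cyba, 1.21 for Cybb, 0.80 for Ncf1, 0.73 for Lnpep and 0.14 for Erap1. Wdfy4 was at -0.67, Ncf4 at -0.60 and Rac2 at -0.22.

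Other genes of the oxidase and of cross-presentation were read from lists of their own. Every list count from here on stands beside 33.4% called higher and 34.2% called lower of all genes tested. No list was tested as a set. Of 5 oxidase partners tested, 1 was higher and 1 lower in mature cells (median log2 fold change -0.02, beside -0.01 over all genes). The higher was Hvcn1, a proton channel that balances the charge moved by the oxidase and is also abundant in B cells, which went from 9.62 ± 2.08 to 51.2 ± 14.5 CPM (log2 fold change 2.40, SE 0.18, adjusted p = 1.1e-08). The lower was Rap1a (-0.14). Nrros, which encodes a protein known to lower gp91phox, Rab27a and Rac1 were the 3 not called, but all 3 were called lower with upper quartile factors (-0.14, -0.17 and -0.13) and with library sizes only (-0.24, -0.28 and -0.24).

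Of 15 regulators of Rac and of phagosomal phosphoinositides, 8 were higher and 4 lower (median 0.15). Rubcn, listed under its older symbol 1700021K19Rik and known from LC3-associated phagocytosis, rose by 1.57 on the log2 scale, and the Rac exchange factors Prex1 and Vav2 rose by 1.05 and 0.88. The Rac exchange factor Tiam1 fell (-0.92), as did Arhgdib, an inhibitor of Rac and related GTPases (-0.22). Of 7 other NADPH oxidase family genes only Noxo1 passed the filter, at 0.70 and 1.41 CPM (log2 fold change 1.06), and Nox3, Nox4, Duox2 and Noxa1 were at 0 in all libraries.

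Of 14 antioxidant genes, 9 were higher and 2 lower (median 0.35), beside 33.4% and 34.2% of all genes tested. Gclc, which makes the first step of glutathione synthesis, went from 62.9 ± 14.7 to 1404 ± 394 CPM (SD, n = 8 each; log2 fold change 4.48, SE 0.21, adjusted p = 1.8e-10). Nqo1 (3.09, from 0.16 to 1.45 CPM) and Hmox1 (1.11), a gene also high in splenic macrophages, rose as well. The immature mean of Nqo1 was near the floor of 3 counts, with 0 in some immature library, so it passed the filter through the mature ones. Gpx1, the cytosolic glutathione peroxidase, fell (-0.49), as did Prdx2 (-0.29).

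Of 17 genes tested for vesicle traffic in cross-presentation, 9 were higher and 5 lower (median 0.19), beside 33.4% and 34.2% of all genes tested. Rab34 (2.46, from 0.40 to 2.21 CPM), Rab22a (1.18) and Tfeb (0.78), a regulator of lysosomal genes, rose by the most. Rab34 was at most at 0.57 CPM in immature libraries, near the floor, so it passed the filter through the mature ones. Rab39 (-0.90), Lman1 (-0.64) and Vamp3 (-0.39) fell by the most. Of 12 genes for the export of antigen from phagosomes, 2 were higher and 3 lower (median -0.01). Apol7c went from 335 ± 56.8 to 1723 ± 352 CPM (log2 fold change 2.36, SE 0.14), and Vcp, the ATPase that pulls proteins from membranes, rose by 0.82. The translocon subunits Sec61g (-0.36) and Sec61b (-0.34) and the pore protein gene Mpeg1 (-0.27) fell.

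Relatives of the members moved in both directions. Beside Sec22b, Sec22a rose by 1.79 on the log2 scale (12.7 ± 1.59 to 44.1 ± 9.27 CPM) and Sec22c fell (-0.62). Ykt6, the other longin SNARE tested, was called higher at 0.14, but was at -0.09 with library sizes only. Of 7 BEACH proteins tested beside Wdfy4, 2 were higher, Nbeal1 (0.61) and Lyst (0.36), and 2 lower, Nsmaf (-0.56) and Nbeal2 (-0.54), with a median of 0.02. Of 6 aminopeptidases of the family of Erap1 and Lnpep, Npepps rose by 0.63. Rnpepl1 was called higher at 0.10 but was at -0.02 with upper quartile factors and at -0.12 with library sizes only. Rnpep (-0.67), Lta4h (-0.55) and Anpep (-0.34) fell, and the median was -0.28.

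The genes whose levels ran most like each member over the 16 libraries, among 8912 genes, are a description, since the points share stage, genotype and library. Cyba ran closest to Psme2 (Pearson r = 0.996) and Ncf1 to N4bp2l1 (0.997). Wdfy4 was closest to Arhgap18 (0.988), Ncf4 to Gpx1 (0.989) and Lnpep to Cd44 (0.978). Cybb was closest to Gimap6 (0.974), Erap1 to Cep350 (0.943) and Rac2 to Arhgdib (0.914). Sec22b had no gene above r = 0.796, that of Armcx3.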

How the data were processed

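Sorted splenic cDC1s were sequenced in 16 libraries. Per the submitters' processing notes, FastQC 0.11.4, Trimmomatic 0.35, TopHat2 2.1.0, SAMtools 0.1.19, limma 3.42.2 and build mm10 were used; the counter and strandedness are not given in the sources used here. The authors deposited raw counts for 24421 genes and a log2 table for 11843 genes, whose values match log2 CPM plus a constant per library (residual SD at most 0.0198). The counts were tested with edgeR 4.0.16 in R 4.3.3: filterByExpr (11978 genes kept), TMM, a robust quasi-likelihood fit of all 4 groups with 12 residual degrees of freedom, and Benjamini-Hochberg adjustment over all genes at 0.05. The SE of a log2 fold change is its size divided by the square root of F. Ratios used counts plus 0.5. With 3 counts as floor, the depth resolves 0.176 to 0.215 CPM before TMM factors. Positions and exon lengths come from GENCODE vM21 and promoter windows from RefSeq.

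The members and gene lists were chosen with earlier results of these data known. Named genes are the members, up to 3 called genes per list and direction by size of change, Rac1, marker genes, and the most alike gene of each member with a mean of at least 5 CPM; Nrros, Rab27a and Ykt6 are named as list members. Cybc1 and Ly6g matched no row by symbol. Some items are not reported here. Same-numbered immature and mature libraries deviated together within each genotype (correlations 0.248 to 0.505 in 8 pairs over 8267 genes). The replicate numbers may thus pair them, which comes from the data and not from the labels. The main tests, of single genes and of ratios, did not use this pairing. Alternatives covered scaling (upper quartile, library sizes), no filter, DESeq2 1.42.0, limma 3.58.1 on the deposited log2 values, and leaving out libraries. They also covered the replicate number as a block, either across the genotypes or within each genotype.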

Additional observations from a re-analysis of the deposited data

Results flagged for a closer look

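Rac2 in Xbp1fl mature replicate 4 was at 153.2 CPM, apart from the other 3 libraries of its group at 194.4 to 202.2 CPM (the gap was 0.839 of the group's range, above the critical value of 0.829 for 4 samples). It was 1 of 3 such samples among 72 groups of 4 examined (the 9 genes, the 4 ratios, and Rac1, Ccr7, Xbp1, Ern1 and Hvcn1, in each of the 4 groups), and chance gives about 1 in 20. Without it the log2 fold change of Rac2 within Xbp1fl was -0.20 (adjusted p = 0.011), against -0.28 with it. The same library had the lowest Cybb of the mature libraries, at 40.3 CPM. Rac1 in Xbp1flIre1fl mature replicate 4 was at 580.4 CPM, apart from 536.8 to 541.8 CPM in the other libraries of its group (gap 0.886 of the range). Hvcn1 in Xbp1fl mature replicate 3 was at 56.9 CPM, apart from 42.8 to 44.0 CPM (gap 0.916 of the range).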

How the results depend on the processing

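The calls between stages for Cyba, Cybb, Ncf1, Lnpep, Wdfy4, Ncf4 and Rac2 held under all 25 alternatives run on them. Scaling changed the others. Sec22b was at -0.058 with upper quartile factors in the mean of genotypes, -0.056 within Xbp1fl and -0.061 within Xbp1flIre1fl, and at -0.16, -0.17 and -0.16 with library sizes only. Erap1 was at -0.092 with library sizes only in the mean, -0.091 within Xbp1fl and -0.092 within Xbp1flIre1fl. Within Xbp1fl, Erap1 lost its call with upper quartile factors (0.02), without the filter (0.13, adjusted p = 0.108) and without immature replicate 2 or 3 or mature replicate 1 or 4 (adjusted p up to 0.099). Within Xbp1flIre1fl it gained one with DESeq2 (adjusted p = 0.014) with limma (0.039) and without mature replicates 2 and 4 (0.15, adjusted p = 0.045), and Rac2 gained one with upper quartile factors (-0.25) and library sizes only (-0.34). The replicate block across the genotypes left the count of members called at 8 and changed no member's call between stages (Erap1 0.13, adjusted p = 0.0049). Leaving out each library in turn gave 8 members called in the mean of genotypes, 7 to 8 within Xbp1fl and 6 within Xbp1flIre1fl. Wdfy4 between mature genotypes ran from -0.18 to 0.050, the highest without Xbp1flIre1fl mature replicate 3. Without Xbp1flIre1fl mature replicates 2 and 4 together, 1 member was called between mature genotypes. Within Xbp1flIre1fl alone the ratios lost their calls, at 1.18 for Ncf1 to Ncf4, 0.47 for Lnpep to Erap1 and -0.14 for Rac2 to Rac1 (adjusted p = 0.114 each). Their unadjusted exact permutation p-values were 0.0286, 0.0857 and 0.0571, in that order. As 4 against 4 libraries cannot give an exact p below 0.0286, only Ncf1 to Ncf4 was at that limit. Lnpep to Erap1 and Rac2 to Rac1 were above 0.05 before adjustment too. Of the counts over gene lists, those that moved by over 1.5 times are given. Called lower with upper quartile factors were 4 oxidase partners, 4 antioxidant genes and 6 export genes, and called higher 1 longin SNARE and 1 aminopeptidase. With library sizes only the lower counts were 4 oxidase partners, 7 oxidase regulators, 5 antioxidant, 8 traffic and 8 export genes, 4 BEACH genes and 5 aminopeptidases, and the higher counts 1 longin SNARE, 1 BEACH gene and 1 aminopeptidase. Other list counts moved by 1.5 times or less, among them traffic genes called higher, from 9 to 7 with upper quartile factors and 6 with library sizes only. Leaving out 1 library moved the log2 ratio of Cybb to Cyba between 0.13 and 0.33 (adjusted p from 0.45 to 0.074). With the longest transcript as length, mean levels over all 16 libraries were 20.3 RPKM for Sec22b, 31.5 for Erap1, 707 for Cyba, 137 for Ncf1 and 98.3 for Ncf4. With merged exons the same means were 14.4, 24.4, 506, 107.8 and 71.3 RPKM, in that order. The cause of these changes was not tested beyond the shift of the median of all genes under each scaling.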

Other observations

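Within the 8 mature libraries, the level of Ccr7 was set against each of the 9 genes, a comparison chosen after seeing the data (log2 CPM, exact permutation tests, adjusted over 9 relations). Ncf1 had Pearson r = 0.957 (p = 8.4e-04, adjusted 0.0076) and Spearman rho = 0.786 (adjusted 0.084), and r = 0.951 without the 2 libraries farthest in Ccr7, Xbp1flIre1fl mature replicates 3 and 4. Cyba had r = 0.897 (permutation p = 0.0029, adjusted 0.013) and rho = 0.905 (adjusted 0.021), with r = 0.697 without them. Wdfy4 ran the other way, r = -0.785 (permutation p = 0.020, adjusted 0.045) and rho = -0.905 (adjusted 0.021), with r = -0.835 without them. For Lnpep r was 0.848 (permutation p = 0.0048, adjusted 0.014) and rho 0.643 (adjusted 0.144), but r fell to 0.434 without those libraries, so the relation rests on them. The other 5 genes did not pass, with r from -0.645 (Ncf4) to 0.516 (Erap1). Only the 9 genes were set against Ccr7, so the share of all genes tested that would pass is not known. The relations can therefore not be read as particular to these genes. Among mature libraries the summed cDC1 markers were lowest, at 4005 CPM, in Xbp1flIre1fl replicate 3, which had the highest Ccr7. They were highest, at 6558 CPM, in Xbp1flIre1fl replicate 4, which had the lowest. Each genotype has 4 mature libraries, too few for a value within it.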
